A study of Mus musculus with 28 samples.

Results

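The cytosolic RNA sensors and their regulators were described here through 7 mouse genes, Ddx58 (which encodes RIG-I and is also named Rigi), Ifih1 (MDA5), Dhx58 (LGP2), Ddx60, Mavs, Eif2ak2 (PKR) and Adar. They were chosen by name, each as the row whose Ensembl identifier maps to that symbol, and all 7 were found among 15423 genes in the count table of a first experiment and 56941 genes in that of a second one. The study sequenced polyadenylated RNA from bone marrow-derived macrophages, which are macrophages grown from marrow precursors, here for 6 days with medium conditioned by L929 cells and then for 24 h without it. The mice were males and females of 2 to 4 months, and both knockout lines had been backcrossed to C57BL/6. The first experiment held 3 groups of 4 libraries each, namely Irgm_IFNAR-KO macrophages (IFNAR/Irgm1-/-), Irgm1-KO macrophages (Irgm1-/-) and WT macrophages. The second held 4 groups of 4 libraries each, namely Irgm1KO_fenofibrate and Irgm1KO_control macrophages (both Irgm1-/-), and WT_fenofibrate and WT_control macrophages. Fenofibrate, an agonist of the nuclear receptor PPAR alpha, was given at 50 µM. No group lacked the interferon receptor alone, so in Irgm_IFNAR-KO cells the loss of the receptor was measured only together with the loss of Irgm1. How long fenofibrate was given and what the control cells received are not stated in the labels.

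RIG-I and MDA5 are helicases that bind foreign or misplaced RNA in the cytosol, RIG-I mainly short ends that carry a triphosphate and MDA5 long double-stranded RNA. Both pass the signal to MAVS, an adaptor on the outer mitochondrial membrane, from which kinases activate the transcription factors IRF3 and IRF7 and so the type I interferon genes. Interferon then acts through its receptor IFNAR on genes with an interferon-stimulated response element, among them the sensors themselves. LGP2 lacks the signalling domains and modulates the other sensors, and DDX60 is a related helicase for which a supporting role has been described. PKR halts translation through eIF2 alpha when it binds double-stranded RNA, and ADAR1, the product of Adar, edits adenosines in the cell's own double-stranded RNA and so keeps MDA5 and PKR from responding to it. Irgm1 is an immunity-related GTPase that acts in autophagy and in the quality control of mitochondria.

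The promoters are shown because the members differed widely in their response to the loss of Irgm1 and of the interferon receptor. They are 300-base windows, from 250 bases before to 50 bases after an annotated start, in RefSeq's annotation of GRCm38.p6, and 8 windows of 6 members were matched by symbol (3 of them for Adar), Dhx58 being the member not included. Capitals mark a match on either strand to the core of the interferon-stimulated response element (ISRE), GAAA and GAAA with any 2 bases between them, or to the same repeats 1 base closer, GAAANGAAA, a spacing added after the sequences were read.
Ddx60 (chr8:61927837-61928136, plus strand): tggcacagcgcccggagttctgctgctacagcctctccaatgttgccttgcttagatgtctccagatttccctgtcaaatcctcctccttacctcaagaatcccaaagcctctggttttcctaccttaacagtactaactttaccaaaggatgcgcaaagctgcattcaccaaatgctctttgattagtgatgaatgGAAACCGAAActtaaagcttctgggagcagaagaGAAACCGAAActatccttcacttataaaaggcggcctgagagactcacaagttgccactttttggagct
Ddx58 (chr4:40239776-40240075, minus strand): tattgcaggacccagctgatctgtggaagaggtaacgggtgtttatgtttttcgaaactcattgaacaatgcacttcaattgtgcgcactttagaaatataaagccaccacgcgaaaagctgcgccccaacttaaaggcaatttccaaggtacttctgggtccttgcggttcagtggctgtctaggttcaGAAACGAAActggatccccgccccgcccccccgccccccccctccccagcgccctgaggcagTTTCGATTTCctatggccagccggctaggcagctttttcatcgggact
Ifih1 (chr2:62646206-62646505, minus strand): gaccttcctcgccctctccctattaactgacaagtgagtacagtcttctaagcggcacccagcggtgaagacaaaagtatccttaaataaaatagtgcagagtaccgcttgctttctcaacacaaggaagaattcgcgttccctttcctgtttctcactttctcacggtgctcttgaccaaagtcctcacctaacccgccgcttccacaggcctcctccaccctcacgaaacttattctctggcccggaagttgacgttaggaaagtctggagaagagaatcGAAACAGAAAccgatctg
Eif2ak2 (chr17:78882523-78882822, minus strand): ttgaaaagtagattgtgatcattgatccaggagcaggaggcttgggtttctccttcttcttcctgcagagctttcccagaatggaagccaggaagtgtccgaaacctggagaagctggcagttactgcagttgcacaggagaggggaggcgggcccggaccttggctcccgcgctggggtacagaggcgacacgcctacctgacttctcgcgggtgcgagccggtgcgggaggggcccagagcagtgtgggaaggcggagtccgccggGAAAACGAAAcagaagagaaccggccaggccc
Adar, window 3 (chr3:89730468-89730767, plus strand): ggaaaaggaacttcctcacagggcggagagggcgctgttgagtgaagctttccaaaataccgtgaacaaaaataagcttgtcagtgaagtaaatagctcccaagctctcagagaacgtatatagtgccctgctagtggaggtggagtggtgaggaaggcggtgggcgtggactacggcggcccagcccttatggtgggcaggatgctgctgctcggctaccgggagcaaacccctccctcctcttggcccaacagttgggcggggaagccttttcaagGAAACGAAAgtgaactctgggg
Mavs (chr2:131233813-131234112, plus strand): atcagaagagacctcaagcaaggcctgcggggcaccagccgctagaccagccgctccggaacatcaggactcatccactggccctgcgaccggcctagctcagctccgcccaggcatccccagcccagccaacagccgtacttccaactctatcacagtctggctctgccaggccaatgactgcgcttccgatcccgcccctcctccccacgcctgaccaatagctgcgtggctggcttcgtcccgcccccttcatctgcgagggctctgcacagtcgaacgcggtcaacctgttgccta

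The ISRE core stood in 4 of the 8 windows, each of a different one of these 6 members, against 3.44% of all 32851 windows of this length. Ddx60 held it 2 times, 53 to 44 and 19 to 10 bases before the start, and Ddx58, Ifih1 and Eif2ak2 held it once each, from base 3, base 33 and base 19 after the start. GAAANGAAA, present in 3.17% of all windows, stood in the Ddx58 window from 60 to 52 bases before the start and in the Adar window from base 29 after it. TTCNNNGAA, the core of the gamma-activated site and present in 8.30% of all windows, was found in the Eif2ak2 window from 178 to 170 bases before the start and in the same Adar window from base 23, where it overlaps the other match. The Mavs window and the other Adar windows held none of the 3 motifs. The first bases after the start of the Adar window shown were not found in a GENCODE M21 transcript, and those of the other windows were. A match describes these letters only, and binding was not measured.

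**Figure D1:**
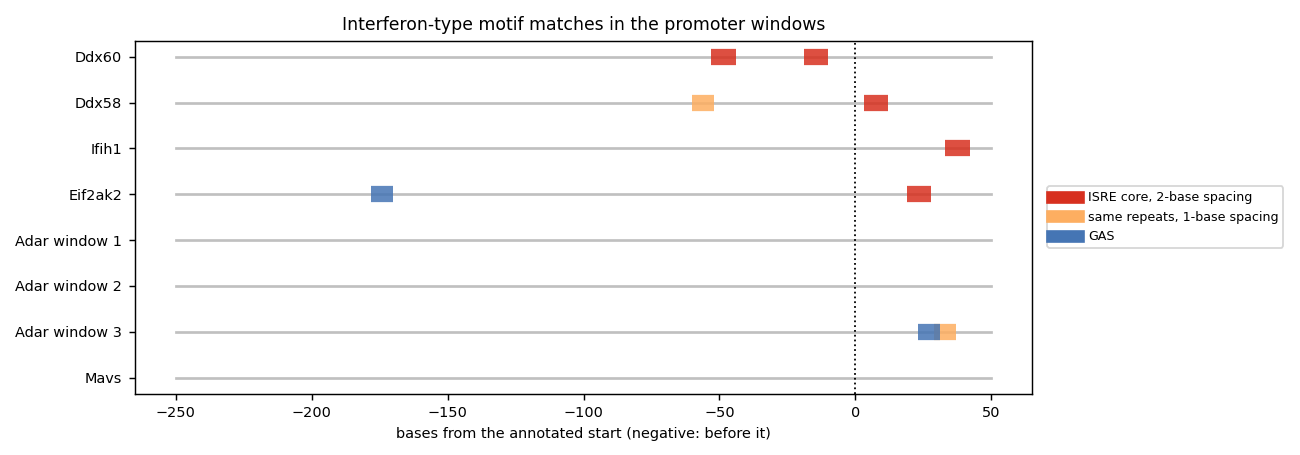
Positions of the motif matches (coloured blocks) in the 8 promoter windows (grey lines), in bases from the annotated start on the x axis. Ddx60 carries 2 matches of the response element core before its start, and Mavs and 2 of the Adar windows carry none.

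Libraries held 48.7 to 70.5 M counts assigned to genes in the first experiment and 82.4 to 120.8 M in the second, and a member had between 197 and 61166 counts in a library, so counting error was small beside the spread between libraries. Levels are given as CPM, counts per M (mega) of library counts after TMM scaling, tests are edgeR's quasi-likelihood test with p-values adjusted by Benjamini and Hochberg's method across every tested gene, and a gene was called at an adjusted p below 0.05. Irgm1 was lower in every Irgm1-deficient library but not absent, at 641 to 786 CPM in Irgm_IFNAR-KO and 628 to 839 CPM in Irgm1-KO, against 1189 to 1352 CPM in WT, and in the second experiment at 991 to 1144 CPM in the Irgm1KO groups, against 1470 to 1673 CPM in the WT groups. Ifnar1 was not called in Irgm_IFNAR-KO against WT (log2 fold change -0.50, SE 0.19, adjusted p = 0.119 by edgeR's test), so its gene count does not check that label. All 10 macrophage markers were above 1 CPM in every group. No lymphoid marker reached 1 CPM in the second table (8 of 8 present), and the first table held 0 of 8. Summed marker levels moved with the groups, and their part in the results below was not tested. That of the 10 macrophage markers was 30770 to 42390 CPM in Irgm_IFNAR-KO, 10970 to 16670 CPM in Irgm1-KO and 23040 to 43600 CPM in WT, and in the second experiment 15930 to 19510 CPM in Irgm1KO_fenofibrate, 11670 to 14140 CPM in Irgm1KO_control, 14740 to 23830 CPM in WT_fenofibrate and 23600 to 32750 CPM in WT_control. The neutrophil markers (6 of 8 in the first table) summed to 14.9 to 24.6 CPM in Irgm_IFNAR-KO, 5.14 to 9.38 CPM in Irgm1-KO and 15 to 38.6 CPM in WT, and those in the second table (8 of 8) to 0.861 to 2.46 CPM in Irgm1KO_fenofibrate, 0.312 to 0.592 CPM in Irgm1KO_control, 2.14 to 2.89 CPM in WT_fenofibrate and 2.18 to 5.90 CPM in WT_control. The dendritic cell markers (6 of 7 in the first table) summed to 58.1 to 66.3 CPM in Irgm_IFNAR-KO, 21.7 to 26.2 CPM in Irgm1-KO and 46.2 to 54.5 CPM in WT, and those in the second table (7 of 7) to 56.7 to 72.5 CPM in Irgm1KO_fenofibrate, 56.0 to 59.9 CPM in Irgm1KO_control, 8.72 to 25.2 CPM in WT_fenofibrate and 27.6 to 46.1 CPM in WT_control. With Irgm1 loss the dendritic sum was lower in the first experiment and higher in the second. The fibroblast markers (3 of 6 in the first table) summed to 6.67 to 7.86 CPM in Irgm_IFNAR-KO, 0.955 to 1.53 CPM in Irgm1-KO and 2.96 to 7.77 CPM in WT, and in the second table to at most 0.216 CPM in either Irgm1KO group, at most 1.62 CPM in WT_fenofibrate and 1.10 to 2.96 CPM in WT_control. The erythroid, mast cell and basophil markers (2 of 6 in the first table, 6 of 6 in the second) summed to at most 0.478 CPM in any library. In bulk RNA, a change in the number of cells of a type and in the RNA per cell cannot be told apart.

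Loss of Irgm1 came with higher levels of all 7 members. In Irgm1-KO against WT macrophages 7 of 7 rose, where 19.8% of the 13998 tested genes rose and 40.4% changed in either direction. In Irgm1KO_control against WT_control 7 of 7 rose again, where 27.3% of the 15429 tested genes rose and 53.4% changed. No member's Irgm1-KO or Irgm1KO_control libraries overlapped those of the WT groups beside them. The share of all tested genes without such overlap was not computed for any comparison, so this and later statements of overlap or separation describe the members only. The size of the difference ran from 1.51-fold for Mavs to 5.31-fold for Ddx60 in the first experiment, and from 1.30-fold to 5.87-fold for the same genes in the second.

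Ddx58 and Ifih1, the sensors that signal through Mavs, rose to similar levels. Ddx58 stood at 478, 479, 358 and 428 CPM in the Irgm1-KO libraries, against 163, 93.7, 145 and 139 CPM in the WT libraries (log2 fold change 1.69, SE 0.16, adjusted p = 5.87e-06). Ifih1 stood at 526, 490, 479 and 435 CPM in Irgm1-KO, against 152, 116, 154 and 151 CPM in WT (1.75, SE 0.10, adjusted p = 1.06e-07). Every knockout library was above every WT library for both genes, and WT replicate 2 was the lowest library of the experiment's WT group for each. In the second experiment Ddx58 was at 466, 388, 367 and 448 CPM in Irgm1KO_control, against 163, 138, 175 and 141 CPM in WT_control (1.44, SE 0.12, adjusted p = 9.39e-08). Ifih1 was at 502, 409, 405 and 492 CPM in Irgm1KO_control, against 144, 147, 169 and 133 CPM in WT_control (1.61, SE 0.11, adjusted p = 1.11e-08). Both genes thus stood about as high in the knockout cells of one experiment as of the other, by groups that were sequenced and scaled apart and were not tested against each other.

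Among the helicases without a signalling domain of this kind, Ddx60 changed by more and Dhx58 by less. Ddx60 was at 212, 184, 234 and 179 CPM in Irgm1-KO, against 39.9, 33.8, 40.2 and 38.6 CPM in WT (2.41, SE 0.13, adjusted p = 4.38e-08). It was at 165, 132, 126 and 144 CPM in Irgm1KO_control, against 26.4, 20.8, 30.9 and 18.6 CPM in WT_control (2.55, SE 0.23, adjusted p = 3.02e-07). The lowest knockout library stood far above the highest WT library in each experiment. Dhx58, which encodes the modulator LGP2, was at 211, 221, 247 and 217 CPM in Irgm1-KO, against 132, 132, 143 and 142 CPM in WT (0.71, SE 0.08, adjusted p = 1.22e-05). It was at 228, 211, 209 and 233 CPM in Irgm1KO_control, against 108, 101, 130 and 93.8 CPM in WT_control (1.03, SE 0.15, adjusted p = 3.70e-05). In the second experiment its knockout libraries (209 to 233 CPM) lay somewhat closer together than those of WT_control (93.8 to 130 CPM).

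Mavs, the adaptor that both sensors need, rose by the smallest amount of the 7. It was at 66.2, 66.0, 53.1 and 62.7 CPM in Irgm1-KO, against 46.4, 34.5, 41.7 and 42.0 CPM in WT (0.59, SE 0.10, adjusted p = 0.000542). In the second experiment it was at 71.6, 68.6, 64.8 and 67.8 CPM in Irgm1KO_control, against 53.3, 49.2, 56.7 and 50.6 CPM in WT_control (0.38, SE 0.05, adjusted p = 9.36e-06). The groups were separate in both experiments, by a margin of a few CPM.

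The kinase gene Eif2ak2 and the editing enzyme gene Adar lay between these. Eif2ak2 was at 245, 228, 188 and 202 CPM in Irgm1-KO, against 154, 92.0, 133 and 148 CPM in WT (0.71, SE 0.16, adjusted p = 0.00306), and at 208, 204, 221 and 211 CPM in Irgm1KO_control, against 140, 150, 161 and 132 CPM in WT_control (0.53, SE 0.08, adjusted p = 3.49e-05). Adar was at 401, 401, 327 and 378 CPM in Irgm1-KO, against 200, 138, 186 and 182 CPM in WT (1.09, SE 0.12, adjusted p = 1.54e-05), and at 380, 340, 337 and 373 CPM in Irgm1KO_control, against 212, 203, 232 and 202 CPM in WT_control (0.75, SE 0.07, adjusted p = 1.27e-07). For both genes every knockout library was above every WT library. Counts per gene do not separate the long, interferon-inducible form of ADAR1 from its short, constitutive form. In GENCODE M21 16.8% of the exon bases of Adar overlap exons of Chrnb2 on the other strand, a gene with 35 to 91 and 104 to 318 counts per library in the 2 experiments, and whether strand was used in counting is not stated in the sources at hand.

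**Figure D2:**
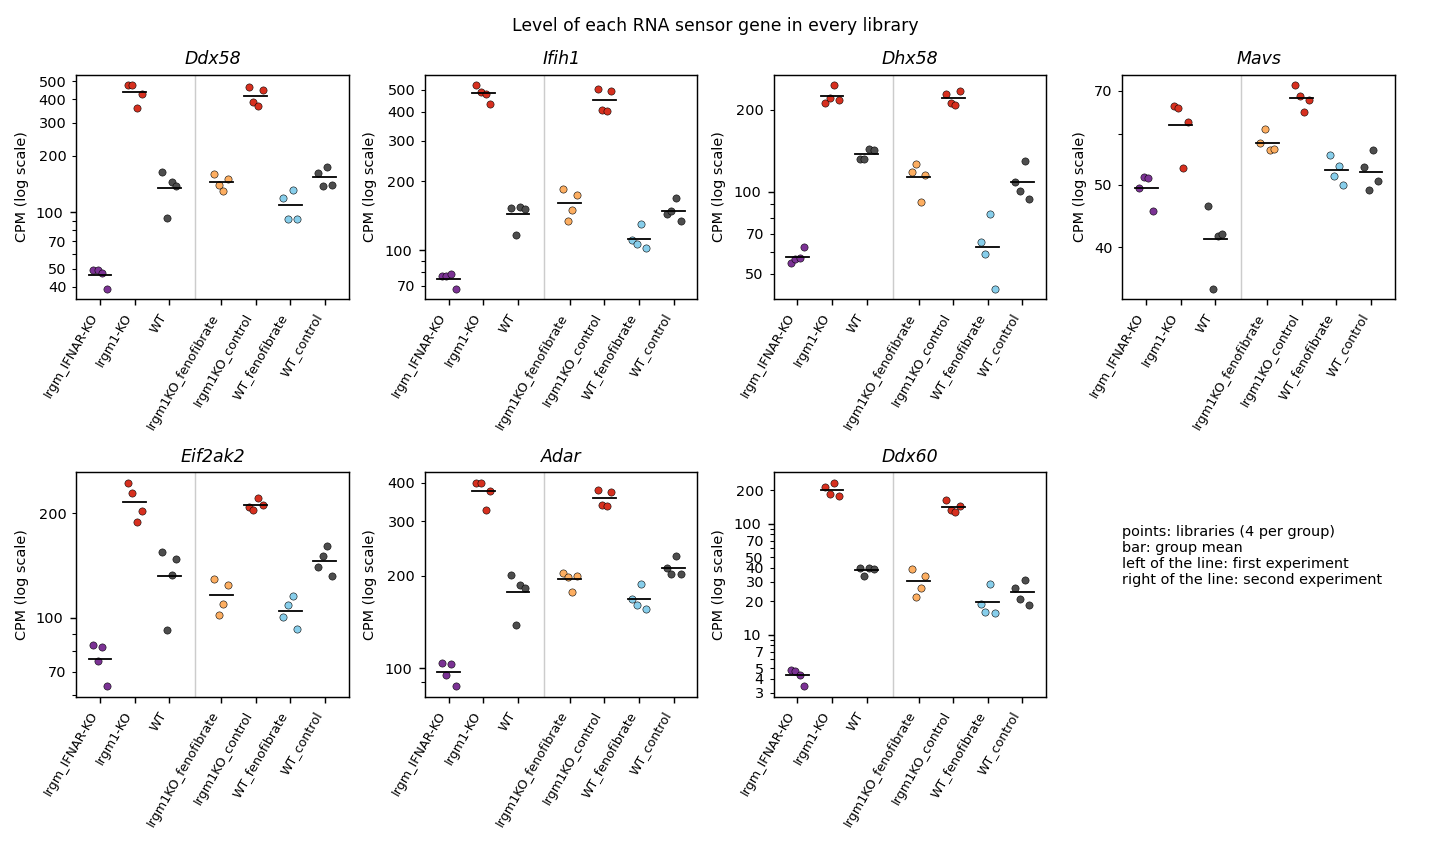
Level of each member in every library (points, CPM on a log axis) with the group mean (bar), by group on the x axis, 4 libraries per group, with the first experiment left of the grey line. Irgm1-KO and Irgm1KO_control are the highest groups for all 7 genes, Irgm_IFNAR-KO is the lowest group of the first experiment for every gene but Mavs, and Irgm1KO_fenofibrate lies near the WT groups of its experiment.

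With the interferon receptor also lost, all 7 members stood below the Irgm1-KO level, and 6 of them below the WT level. In Irgm_IFNAR-KO against Irgm1-KO 7 of 7 fell, where 21.3% of the tested genes fell and 42.8% changed. In Irgm_IFNAR-KO against WT 6 of 7 fell, where 8.22% of the tested genes fell, 3.94% rose and 12.2% changed. Both comparisons share the Irgm_IFNAR-KO libraries, and the first shares the Irgm1-KO libraries with the comparison of Irgm1-KO with WT.

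Ddx60 fell the furthest, to 4.80, 4.73, 4.38 and 3.42 CPM in the Irgm_IFNAR-KO libraries, against 179 to 234 CPM in Irgm1-KO and 33.8 to 40.2 CPM in WT. Its difference was 46.6-fold against Irgm1-KO (-5.54 on the log2 scale, SE 0.15, adjusted p = 1.06e-10) and 8.79-fold against WT (-3.14, SE 0.13, adjusted p = 4.03e-08). By p, only 8 of the 13998 tested genes ranked ahead of Ddx60 in Irgm_IFNAR-KO against WT.

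Ddx58 was at 49.2, 49.0, 47.4 and 39.1 CPM in Irgm_IFNAR-KO, 9.44-fold below Irgm1-KO (-3.24, SE 0.17, adjusted p = 2.97e-08) and 2.93-fold below WT (-1.55, SE 0.16, adjusted p = 5.50e-05). Ifih1 was at 76.8, 77.1, 78.6 and 67.9 CPM, 6.43-fold below Irgm1-KO (-2.68, SE 0.11, adjusted p = 2.59e-09) and 1.91-fold below WT (-0.93, SE 0.10, adjusted p = 7.16e-05). Dhx58 was at 54.6, 56.7, 56.9 and 62.9 CPM, 3.88-fold below Irgm1-KO (-1.95, SE 0.08, adjusted p = 2.18e-09) and 2.38-fold below WT (-1.25, SE 0.08, adjusted p = 6.27e-07). None of these libraries reached the lowest WT library, so the 3 helicases were separate in all 3 groups. The share of all tested genes separated in this way was not computed.

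Eif2ak2 was at 83.5, 74.9, 82.1 and 63.4 CPM in Irgm_IFNAR-KO, with log2 fold changes of -1.51 (SE 0.16, adjusted p = 1.03e-05) against Irgm1-KO and -0.79 (SE 0.16, adjusted p = 0.00505) against WT. Adar was at 104, 94.8, 103 and 87.2 CPM, with log2 fold changes of -1.95 (SE 0.12, adjusted p = 1.03e-07) against Irgm1-KO and -0.86 (SE 0.12, adjusted p = 0.000402) against WT. For Eif2ak2 the ranges nearly met, since WT replicate 2 at 92.0 CPM stood just above the highest Irgm_IFNAR-KO library. The other WT libraries were at 133 to 154 CPM. The fall against WT was called under all 16 alternatives run, with log2 fold changes of -0.93 to -0.71.

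Mavs was the exception. It was at 49.4, 51.4, 51.3 and 45.6 CPM in Irgm_IFNAR-KO, against 53.1 to 66.2 CPM in Irgm1-KO and 34.5 to 46.4 CPM in WT. It fell against Irgm1-KO (-0.33, SE 0.10, adjusted p = 0.0201), a call that was lost without Irgm1-KO replicate 1 (adjusted p = 0.0584), without Irgm1-KO replicate 2 (adjusted p = 0.0577) or without Irgm_IFNAR-KO replicate 4 (adjusted p = 0.0558), each by edgeR's test. Against WT it was 0.26 higher on the log2 scale (SE 0.10, adjusted p = 0.126), with overlapping libraries, and it was not called. That difference was called when log2 Xist was added as a covariate (0.20, adjusted p = 0.00905 by edgeR's test) and without the library of lowest Xist in each group (0.22, adjusted p = 0.0246 by edgeR's test). In this experiment a single axis held 53.8% of the variance within groups, and the libraries of lowest Xist (WT replicate 2, Irgm1-KO replicate 3 and Irgm_IFNAR-KO replicate 4) lay at one end of it. In the second experiment Xist was at 1.78 and 0.00843 CPM in WT_control replicates 2 and 4, and at 0 CPM in WT_fenofibrate replicates 2 and 4. It was at 1.31 and 1.07 CPM in replicate 3 of Irgm1KO_control and of Irgm1KO_fenofibrate, against 50.2 to 143 CPM in the other libraries. The libraries of low Xist were thus spread unevenly over the genotypes there. The labels give mice of both sexes without saying which library held which, and the part of sex in the values of either experiment was not tested.

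**Figure D3:**
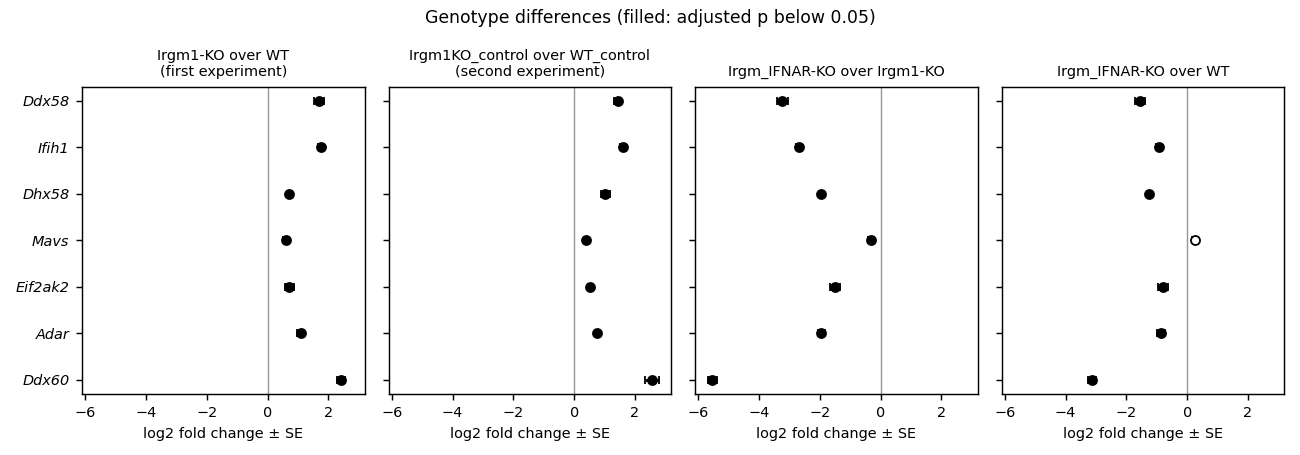
Log2 fold change of each member (points) with its standard error (bars) in 4 genotype comparisons of 4 libraries against 4, on 1 shared x axis, filled where the adjusted p is below 0.05. Ddx60 has the largest difference in each panel, and Mavs has the smallest, with an open point in Irgm_IFNAR-KO against WT.

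Fenofibrate lowered all 7 members in Irgm1-deficient macrophages. In Irgm1KO_fenofibrate against Irgm1KO_control 7 of 7 fell, where 22.2% of the tested genes fell and 45.7% changed. No member's libraries overlapped between these groups, a description without the share over all tested genes, which was not computed. In WT_fenofibrate against WT_control 5 of 7 fell, where 16.9% fell and 35.0% changed, with smaller differences. The difference between the genotypes in the response to fenofibrate was called for 6 of 7 members, each with the larger fall in Irgm1KO cells, where 14.7% of the tested genes had a lower and 29.6% a different response.

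Ddx58 was at 160, 139, 130 and 151 CPM in Irgm1KO_fenofibrate, against 367 to 466 CPM in Irgm1KO_control (-1.52 on the log2 scale, SE 0.12, adjusted p = 9.62e-08). In wild-type cells it was at 119, 92.2, 131 and 92.4 CPM in WT_fenofibrate, against 138 to 175 CPM in WT_control (-0.50, SE 0.12, adjusted p = 0.00404). The difference between these responses was -1.02 on the log2 scale (SE 0.17, adjusted p = 0.000339). Ddx58 in treated knockout cells therefore lay within the span of the WT_control libraries or just below it.

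Ifih1 was at 184, 133, 149 and 174 CPM in Irgm1KO_fenofibrate, against 405 to 502 CPM in Irgm1KO_control (-1.50, SE 0.11, adjusted p = 4.47e-08). It was at 110, 107, 131 and 102 CPM in WT_fenofibrate, against 133 to 169 CPM in WT_control (-0.40, SE 0.11, adjusted p = 0.00966). The difference between the responses was -1.10 (SE 0.16, adjusted p = 9.12e-05). Both sensors of the Mavs pathway thus fell in each genotype, and by more in the knockout. Their groups did not overlap, a description without the share over all tested genes, which was not computed.

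Ddx60 was at 39.1, 21.8, 26.1 and 33.9 CPM in Irgm1KO_fenofibrate, against 126 to 165 CPM in Irgm1KO_control (-2.23, SE 0.22, adjusted p = 1.59e-06). It was at 18.9, 16.0, 28.3 and 15.5 CPM in WT_fenofibrate, against 18.6 to 30.9 CPM in WT_control (-0.30, SE 0.22, adjusted p = 0.319). The groups overlapped in wild-type cells, and the difference was not called, but with the replicate number as a block within each genotype it was (-0.31, adjusted p = 0.00928 by edgeR's test), each WT_fenofibrate library being below the WT_control library of its number. The difference between the responses was -1.93 (SE 0.31, adjusted p = 0.000326), the largest of the 7 members.

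Dhx58 also fell in both genotypes. It was at 118, 126, 91.9 and 115 CPM in Irgm1KO_fenofibrate, against 209 to 233 CPM in Irgm1KO_control (-0.97, SE 0.15, adjusted p = 9.30e-05). It was at 65.4, 58.9, 82.8 and 44.1 CPM in WT_fenofibrate, against 93.8 to 130 CPM in WT_control (-0.78, SE 0.15, adjusted p = 0.001), the largest fall of any member in wild-type cells. The difference between the responses was -0.18 (SE 0.21, adjusted p = 0.572), which was not called and does not show that the responses were equal.

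Mavs was at 58.1, 61.1, 56.6 and 56.9 CPM in Irgm1KO_fenofibrate, against 64.8 to 71.6 CPM in Irgm1KO_control (-0.23, SE 0.05, adjusted p = 0.00137). It was at 55.7, 51.7, 53.5 and 50.1 CPM in WT_fenofibrate, against 49.2 to 56.7 CPM in WT_control (0.01, SE 0.05, adjusted p = 0.927), with overlapping groups. The difference between the responses was -0.24 (SE 0.07, adjusted p = 0.0197), and it was lost with no filter on low counts (adjusted p = 0.0537 by edgeR's test). The adaptor gene was therefore lower with fenofibrate in Irgm1KO cells by a small amount, and within the spread of its libraries in WT cells.

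Eif2ak2 was at 130, 102, 109 and 124 CPM in Irgm1KO_fenofibrate, against 204 to 221 CPM in Irgm1KO_control (-0.86, SE 0.08, adjusted p = 3.98e-07), and at 101, 109, 116 and 93.0 CPM in WT_fenofibrate, against 132 to 161 CPM in WT_control (-0.48, SE 0.08, adjusted p = 0.00028). Adar was at 204, 198, 177 and 199 CPM in Irgm1KO_fenofibrate, against 337 to 380 CPM in Irgm1KO_control (-0.88, SE 0.07, adjusted p = 4.87e-08), and at 168, 161, 187 and 156 CPM in WT_fenofibrate, against 202 to 232 CPM in WT_control (-0.34, SE 0.07, adjusted p = 0.00104). The differences between the responses were -0.38 (SE 0.11, adjusted p = 0.0199) for Eif2ak2 and -0.54 (SE 0.10, adjusted p = 0.000501) for Adar. In both genotypes the treated libraries of the kinase and of the editing enzyme all stood below the untreated ones. The share of all tested genes of which this holds was not computed.

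**Figure D4:**
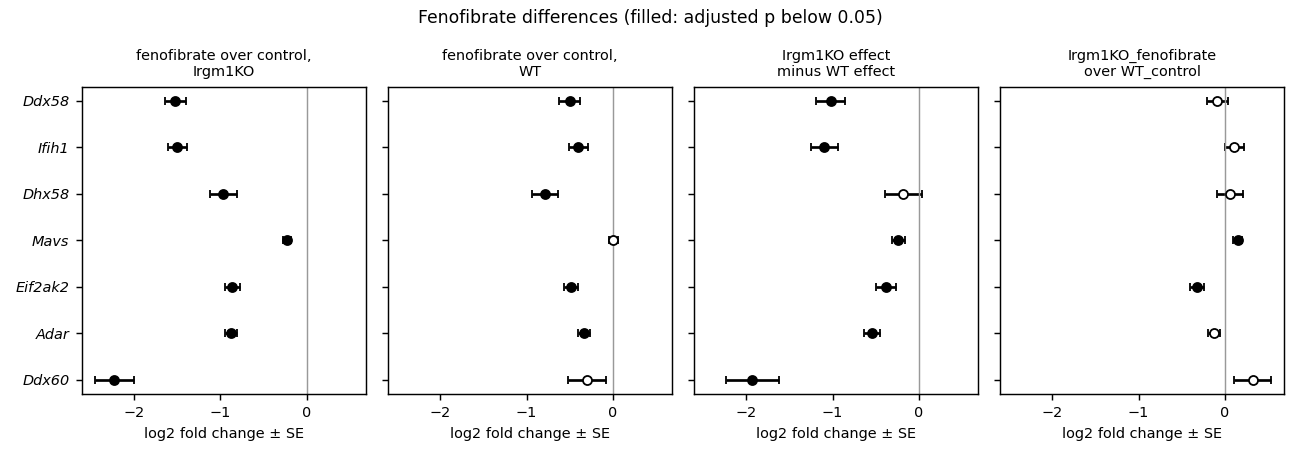
Log2 fold change of each member (points) with its standard error (bars) for fenofibrate in Irgm1KO cells, fenofibrate in WT cells, the difference between these, and Irgm1KO_fenofibrate against WT_control, on 1 shared x axis, filled where the adjusted p is below 0.05. The fall is larger in Irgm1KO cells for every member, the difference is open for Dhx58 alone, and in the last panel Mavs and Eif2ak2 alone are filled.

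Set against untreated wild-type cells, treated knockout cells differed by a called amount in 2 members. In Irgm1KO_fenofibrate against WT_control Mavs was higher (0.15, SE 0.05, adjusted p = 0.0224) and Eif2ak2 was lower (-0.33, SE 0.08, adjusted p = 0.00325), where 25.9% of the tested genes were higher, 22.5% lower and 48.4% changed in either direction. The other 5 were not called, with log2 fold changes of -0.09 (SE 0.12) for Ddx58, 0.11 (SE 0.11) for Ifih1, 0.06 (SE 0.15) for Dhx58, -0.12 (SE 0.07) for Adar and 0.32 (SE 0.22) for Ddx60, and all 5 overlapped. The call of Mavs was lost under 6 of 15 alternatives, among them without WT_control replicate 2 or 4 and without Irgm1KO_fenofibrate replicate 1 or 2, while with log2 Xist as a covariate Ddx58 (-0.18, adjusted p = 0.0364) and Adar (-0.17, adjusted p = 0.0111) were also called lower by edgeR's test. Against WT_fenofibrate 6 of 7 were higher in Irgm1KO_fenofibrate, where 18.1% of the tested genes were higher and 33.3% changed. Dhx58 (0.85, SE 0.15, adjusted p = 0.000725) and Ifih1 (0.51, SE 0.11, adjusted p = 0.00235) were called with every alternative run. Ddx58 (0.41, SE 0.12, adjusted p = 0.0147) was lost with no filter on low counts, and the calls of Ddx60 (0.62, SE 0.22, adjusted p = 0.0399), Adar (0.21, SE 0.07, adjusted p = 0.0226) and Mavs (0.14, SE 0.05, adjusted p = 0.0407) were lost under 8, 6 and 9 of 15 alternatives, which include the omission of WT_fenofibrate replicate 2 or 4 and of Irgm1KO_fenofibrate replicate 1 or 4. Eif2ak2 was not called (0.15, SE 0.08, adjusted p = 0.155).

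The members' order was compared on CPM per kilobase of exon (union of GENCODE M21 exons), as a description. In WT macrophages of the first experiment Dhx58 stood highest at 42.0 ± 1.9 CPM per kb (SD, n = 4), ahead of Eif2ak2 at 25.7 ± 5.5, Adar at 21.8 ± 3.3, Ddx58 at 19.2 ± 4.2, Ifih1 at 17.5 ± 2.2, Mavs at 12.3 ± 1.5 and Ddx60 at 4.39 ± 0.34 CPM per kb. From Eif2ak2 to Ifih1 the mean ± SD intervals of neighbours in this order overlapped, while those of Eif2ak2 and Ifih1 themselves did not. This compares intervals and not single libraries. In Irgm1-KO macrophages Ddx58 at 61.8 ± 8.1 and Ifih1 at 59.1 ± 4.6 CPM per kb stood next to Dhx58 at 68.4 ± 4.8, above Adar at 46.4 ± 4.3 and Eif2ak2 at 42.2 ± 5.0. Ddx60 at 23.3 ± 3.0 CPM per kb was above Mavs at 18.5 ± 1.8 in that group alone. In Irgm_IFNAR-KO macrophages Dhx58 at 17.7 ± 1.1, Eif2ak2 at 14.9 ± 1.8 and Mavs at 14.8 ± 0.8 CPM per kb led, and Ddx58 at 6.55 ± 0.67 and Ddx60 at 0.50 ± 0.07 CPM per kb were the lowest. Dhx58 led in 6 of 7 groups, and Adar, at 20.7 ± 1.7 CPM per kb, led in WT_fenofibrate with Eif2ak2 at 20.4 ± 1.9 and Dhx58 at 19.2 ± 4.9 within the spread.

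Ratios of 2 members within a library (0.5 added to each count) do not depend on scaling between libraries, and 4 of them were compared between groups. A library held 7.79 Ifih1 counts per Mavs count in Irgm1-KO (geometric mean, n = 4), against 3.47 in WT, and 6.60 in Irgm1KO_control, against 2.82 in WT_control. The ratio was 1.52 in Irgm_IFNAR-KO, and it was 2.73 in Irgm1KO_fenofibrate and 2.12 in WT_fenofibrate. In each of these pairs but Irgm1KO_fenofibrate against either WT group, 4 of 4 libraries lay beyond those of the other group, though no ratio passed the threshold, as given below. The ratio restates the unlike changes of Ifih1 and Mavs given above. How often other pairs of genes are separated in this way was not computed. Dhx58 counts per Ddx58 count were 0.516 in Irgm1-KO, against 1.04 in WT, and 0.530 in Irgm1KO_control, against 0.700 in WT_control. They were 1.26 in Irgm_IFNAR-KO. These are ratios of counts and not of levels per length, since Ddx58 has the longer exons. Ifih1 counts per Ddx58 count were 1.63 in Irgm_IFNAR-KO, against 1.11 in Irgm1-KO and 1.07 in WT. Eif2ak2 counts per Adar count were 0.572 in Irgm1-KO, against 0.738 in WT, and 0.591 in Irgm1KO_control, against 0.687 in WT_control. For this ratio the first pair was separate and the second overlapped, with Irgm1KO_control replicate 3 at 0.657 and WT_control replicate 4 at 0.654. In a two-sided exact permutation test over 4 against 4 libraries the smallest possible p is 0.0286, which the pairs with complete separation reached, and over 32 tests the lowest adjusted p was 0.0538, so no ratio passed the threshold.

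**Figure D5:**
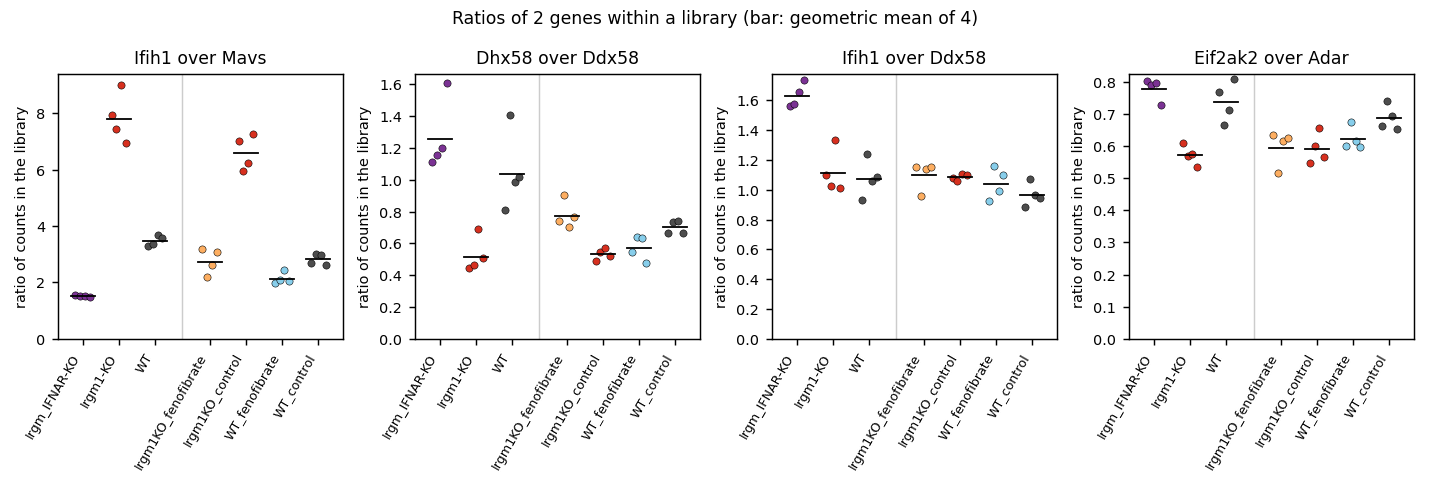
Ratio of the counts of 2 members within each library (points) with the geometric mean (bar), by group on the x axis, 4 libraries per group, with the first experiment left of the grey line and each y axis starting at 0. Ifih1 over Mavs is highest in Irgm1-KO and Irgm1KO_control at 7.79 and 6.60, and Dhx58 over Ddx58 is lowest there at 0.516 and 0.530.

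The members' patterns over all 28 libraries, each gene centred on its experiment's mean of log2 CPM, were alike except for Mavs. Pearson's r between the 6 others ran from 0.901 to 0.996, the highest being that of Ddx58 with Adar, and r of Mavs with them ran from 0.544 to 0.731. These values describe libraries that share groups. The most alike genes were sought among 13676 genes tested in both experiments. Other members, and genes with no symbol or a provisional one (such as Gm or Rik names), were left out. Of the rest, the most alike to Ddx58 were Stat2 (r = 0.994), a factor of the interferon response, and Trim30c (0.991). Adar was most like Stat2 (0.995) and Tent4a (0.995), Ifih1 like Daxx (0.994) and Ifit3b (0.991), Ddx60 like Hsh2d (0.993) and Parp12 (0.991), and Eif2ak2 like Ifi203 (0.987) and Ifi207 (0.982). Dhx58 was most like Pnp (0.980) and Zbp1 (0.975). Mavs was most like Myo1c (0.950), a myosin, and Nploc4 (0.948), a cofactor of the segregase p97, at lower values. Trim30c, Ifit3b, Ifi203, Ifi207 and Pnp have close copies in the mouse genome, so their counts are uncertain where reads could be split between copies.

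The rest of the pathway was followed in 5 lists of 75 genes, of which 72 were tested in the first experiment and 73 in the second. In Irgm1-KO against WT 34 rose and 8 fell of 72, where 19.8% of all tested genes rose and 20.7% fell. The median log2 fold change of the lists was 0.21 there, against -0.02 over all tested genes. In Irgm1KO_control against WT_control 39 rose and 17 fell of 73, where 27.3% of all tested genes rose and 26.1% fell, with a median of 0.22 against 0.0035. In Irgm_IFNAR-KO against Irgm1-KO 10 rose and 30 fell of 72, where 21.5% of all tested genes rose and 21.3% fell, with a median of -0.15 against 0.02. In Irgm_IFNAR-KO against WT 5 rose and 7 fell of 72, where 12.2% of all tested genes changed, with a median of 0.07 against 0.0078. In Irgm1KO_fenofibrate against Irgm1KO_control 7 rose and 37 fell of 73, where 23.5% of all tested genes rose and 22.2% fell, with a median of -0.16 against 0.01. In WT_fenofibrate against WT_control 11 rose and 21 fell of 73, where 18.1% of all tested genes rose and 16.9% fell, with a median of -0.07 against 0.02. Neither these totals nor the counts per list below were tested against the shares of all genes.

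Of 11 ligases, cofactors and RNA partners of the sensors, 5 rose and 3 fell in Irgm1-KO against WT, where 19.8% of all tested genes rose and 20.7% fell. Trim25 (1.20, SE 0.12, adjusted p = 6.23e-06) and Rnf135 (1.40, SE 0.10, adjusted p = 3.86e-07), ubiquitin ligases that act on RIG-I, rose, and Zyx, a scaffold protein of the cytoskeleton, fell (-0.76, SE 0.09, adjusted p = 2.03e-05). In Irgm_IFNAR-KO against Irgm1-KO 3 rose and 5 fell, where 21.5% of all tested genes rose and 21.3% fell. Trim25 was at -1.48 and Rnf135 at -2.13 on the log2 scale there. In Irgm_IFNAR-KO against WT Trim25 was not called (-0.29, SE 0.11, adjusted p = 0.149), while Rnf135 fell (-0.73, SE 0.10, adjusted p = 0.000306). Fenofibrate lowered Trim25 in Irgm1KO cells (-0.68, SE 0.04, adjusted p = 6.75e-09) and raised it in WT cells (0.20, SE 0.04, adjusted p = 0.00144), with a difference between the responses of -0.88 (SE 0.06, adjusted p = 1.05e-07).

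Of 16 tested negative regulators of the sensors and of Mavs, 7 rose and 2 fell in Irgm1-KO against WT, where 19.8% of all tested genes rose and 20.7% fell. Marchf5, a mitochondrial ubiquitin ligase that acts on aggregated MAVS, rose by 0.97 (SE 0.07, adjusted p = 2.75e-07) and Tax1bp1, an adaptor for ligases, by 0.58 (SE 0.07, adjusted p = 3.41e-05), and the ligase gene Smurf2 fell (-0.46, SE 0.07, adjusted p = 0.000136). In Irgm_IFNAR-KO against Irgm1-KO 5 rose and 6 fell, where 21.5% of all tested genes rose and 21.3% fell, with Marchf5 at -1.26 (SE 0.07, adjusted p = 2.24e-08). In Irgm1KO_fenofibrate against Irgm1KO_control 1 rose and 8 of 17 fell, where 23.5% of all tested genes rose and 22.2% fell. Among those that fell were Marchf5 (-0.77, SE 0.06, adjusted p = 1.04e-07), Tax1bp1 (-0.46, SE 0.05, adjusted p = 1.48e-06) and Nlrc5 (-0.61, SE 0.06, adjusted p = 6.97e-07). The list as a whole did not follow the sensors in every comparison, since in Irgm1KO_control against WT_control 6 rose and 6 fell (median log2 fold change 0.03), where 27.3% of all tested genes rose and 26.1% fell. The list's median in Irgm_IFNAR-KO against Irgm1-KO was 0.10.

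Of 17 genes that act below Mavs, 9 rose and none fell in Irgm1-KO against WT, where 19.8% of all tested genes rose and 20.7% fell. In Irgm1KO_control against WT_control 10 rose and none fell, where 27.3% of all tested genes rose and 26.1% fell. In Irgm1KO_fenofibrate against Irgm1KO_control 16 fell and none rose, where 22.2% of all tested genes fell and 23.5% rose. Irf7, the interferon-inducible factor, was at 2237 to 2996 CPM in Irgm1-KO, against 360 to 612 CPM in WT (2.41, SE 0.16, adjusted p = 3.51e-07), and at 25.6 to 32.9 CPM in Irgm_IFNAR-KO, with a log2 fold change of -4.01 against WT (SE 0.18, adjusted p = 4.91e-08). Irf3, its constitutive relative, was not called in Irgm1-KO against WT (0.12, SE 0.09, adjusted p = 0.319) or in Irgm_IFNAR-KO against WT (0.12, SE 0.09, adjusted p = 0.537), and rose slightly in Irgm1KO_control against WT_control (0.22, SE 0.06, adjusted p = 0.00346). Tank, an adaptor of the kinase TBK1, rose in Irgm1-KO (1.14, SE 0.07, adjusted p = 1.11e-07) and fell with fenofibrate in Irgm1KO cells (-1.13, SE 0.07, adjusted p = 1.08e-08). Traf2 also fell with fenofibrate in Irgm1KO cells (-0.996, SE 0.08, adjusted p = 4.22e-08) and in WT cells (-0.52, SE 0.08, adjusted p = 7.27e-05).

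Ifnb1, the interferon beta gene, was scarce in every group. It had 66 to 224 counts per library in Irgm1-KO, against 4 to 10 in WT (log2 fold change 4.12, SE 0.52, adjusted p = 5.29e-05), and 10 to 36 in Irgm_IFNAR-KO, which was below Irgm1-KO (-2.77, SE 0.45, adjusted p = 0.000346) and not called against WT (1.35, SE 0.60, adjusted p = 0.204). In the second experiment it had 7 to 19 counts in Irgm1KO_fenofibrate, 104 to 238 in Irgm1KO_control, 1 to 4 in WT_fenofibrate and 1 to 7 in WT_control. Its fall with fenofibrate in Irgm1KO cells was called (-3.49, SE 0.35, adjusted p = 7.36e-07), and no fold is given against the WT groups, where single libraries held 1 count.

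Around Eif2ak2, 8 of 15 genes of the eIF2 alpha axis rose and 2 fell in Irgm1-KO against WT, where 19.8% of all tested genes rose and 20.7% fell. Trib3, a pseudokinase induced by stress (3.96, SE 0.16, adjusted p = 8.41e-09), Ddit3, which encodes the stress factor CHOP (1.82, SE 0.09, adjusted p = 3.89e-08), and Atf4, whose translation rises when eIF2 alpha is phosphorylated (1.82, SE 0.10, adjusted p = 4.98e-08), rose. In Irgm_IFNAR-KO against Irgm1-KO they fell, with log2 fold changes of -3.44 for Trib3, -3.01 for Ddit3 and -1.57 for Atf4. The kinase genes did not all move with Eif2ak2, since Eif2ak3, which encodes the endoplasmic reticulum kinase PERK, fell in Irgm1KO_control against WT_control (-1.12, SE 0.08, adjusted p = 7.20e-09). Fenofibrate raised Trib3 (3.60, SE 0.30, adjusted p = 1.64e-06), Atf4 (1.38, SE 0.13, adjusted p = 3.05e-06) and Ddit3 (1.39, SE 0.17, adjusted p = 2.38e-05) in WT cells, where Eif2ak2 fell. In Irgm1KO cells the 3 genes were not called with fenofibrate (Trib3 -0.13, SE 0.27, adjusted p = 0.728, Atf4 -0.06, SE 0.13, adjusted p = 0.716, Ddit3 -0.27, SE 0.17, adjusted p = 0.206). The difference between the responses was called for each (-3.72, SE 0.39, adjusted p = 1.41e-05, for Trib3), and its cause was not tested. Ddit3 is named here with fenofibrate after its values were seen.

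Of 13 tested genes of RNA editing, Z-RNA sensing and the control of the cell's own double-stranded RNA, 5 rose and 1 fell in Irgm1-KO against WT. Over all tested genes 19.8% rose, 20.7% fell and 40.4% changed in either direction. Zbp1, a sensor of Z-form RNA, rose by 0.75 (SE 0.08, adjusted p = 1.22e-05), Mlkl, the executor of necroptosis, by 1.15 (SE 0.07, adjusted p = 9.89e-08) and Pnpt1, which degrades mitochondrial RNA, by 1.20 (SE 0.14, adjusted p = 2.66e-05). In Irgm_IFNAR-KO against WT Zbp1 (-0.999, SE 0.08, adjusted p = 6.63e-06) and Mlkl (-0.54, SE 0.07, adjusted p = 0.000187) fell, as Adar did. In Irgm1KO_fenofibrate against Irgm1KO_control 2 rose and 5 fell, where 45.7% of all tested genes changed in either direction. Zbp1 was at -1.10 (SE 0.09, adjusted p = 9.77e-08), Mlkl at -0.78 (SE 0.06, adjusted p = 8.88e-08) and Pnpt1 at -0.87 (SE 0.06, adjusted p = 1.67e-08) there. In WT_fenofibrate against WT_control none rose and 3 fell, Zbp1 among them (-0.41, SE 0.09, adjusted p = 0.00217), where 35.0% of all tested genes changed.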

How the data were processed

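Per the labels' protocols, mRNA was enriched and libraries were made with a Kapa mRNA HyperPrep kit, sequenced for 100 cycles in the first experiment and 50 in the second. The authors deposited 2 tables of raw counts per Ensembl gene, and the submitters' processing notes name fastp, STAR, DESeq2 and GRCm39 without saying which made the counts. In the first deposited table every gene reached at least 10 counts in some library, while 26301 genes of the second were 0 throughout. From these counts edgeR 4.0.16 (R 4.3.3) was run per experiment with all its groups in 1 quasi-likelihood fit, after filterByExpr with a minimum count of 10 and TMM scaling, and DESeq2 1.42.0 was an alternative. The scripts were tested on simulated data. The 7 members, the lists and the promoter motifs were chosen with earlier results of these data known. Pathway genes were named by the 3 smallest p per list and comparison among those called, with Irf3, Trim25, Zbp1 and Ifnb1 wherever measured. The 2 most alike genes per member were named by r, with other members and genes of no or a provisional symbol left out. The labels do not say that replicates came from separate mice, so a p-value reflects only how these libraries vary, which may be technical. As a check of pairing, deviations of libraries of the same replicate number within a genotype of the second experiment correlated at 0.38 to 0.49 (WT) and 0.26 to 0.37 (Irgm1KO), so these numbers pair treated and control libraries, while in the first experiment they ran from -0.48 to 0.52 and pair nothing. No library pair agreed within sampling noise.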

Additional observations from a re-analysis of the deposited data

Results flagged for a closer look

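Among 63 groups of 4 libraries, in which chance would set 1 library apart in about 1 of 20 groups, 3 held a library far from the others. Ifih1 was at 116.2 CPM in WT replicate 2 of the first experiment, against 151 to 154 CPM in the other WT libraries, and at 67.92 CPM in Irgm_IFNAR-KO replicate 4, against 76.8 to 78.6 CPM. Both libraries are the ones of lowest Xist in their group, and the part of sex makeup in these values was not tested. Ifnar1 was at 53.08 CPM in Irgm_IFNAR-KO replicate 3, against 108 to 114 CPM in the other libraries of that group.

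The response to fenofibrate differed between Irgm1KO and WT cells, by edgeR's test of the interaction, for 6 members. The differences, on the log2 scale, were -1.023 for Ddx58, -1.096 for Ifih1, -0.2377 for Mavs, -0.3793 for Eif2ak2, -0.5397 for Adar and -1.932 for Ddx60. Among the other named genes they were -0.8845 for Trim25, whose response had opposite signs in the genotypes, -0.6905 for Zbp1 and -2.793 for Ifnb1, the last a fitted value that rests on 1 to 7 counts per library in the WT groups and is no measure of size.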

How the results depend on the processing

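Of 1036 log2 fold changes of members recomputed under an alternative, 989 kept their direction and side of the threshold, 34 lost the call, 5 gained it and 8 changed sign. The 7 of 7 calls in Irgm1-KO against WT, in Irgm1KO_control against WT_control and in Irgm1KO_fenofibrate against Irgm1KO_control held under every alternative run, as did the 6 of 7 in Irgm_IFNAR-KO against WT except that Mavs joined with the Xist covariate and without the libraries of lowest Xist. The count in Irgm_IFNAR-KO against Irgm1-KO was 6 to 7 with 1 library left out. The sign changes were in values that were not called. Mavs in WT_fenofibrate against WT_control, 0.007781 as reported and -0.02836 to 0.04059 with 1 library left out, was -0.00174 with DESeq2 size factors, -0.001931 with DESeq2's test, and among these -0.02836, -0.008917 and -0.0195 without WT_control replicate 2, WT_control replicate 4 and WT_fenofibrate replicate 1. Dhx58 in Irgm1KO_fenofibrate against WT_control, up to 0.1489 with 1 library left out, was -0.053 with the Xist covariate, -0.00119 without WT_control replicate 4 and -0.008734 without Irgm1KO_fenofibrate replicate 2. In Irgm1KO_fenofibrate against WT_fenofibrate 3 members were called with no filter, with only the groups compared and with the Xist covariate, 3 to 6 with 1 library left out, and 21 pathway genes in place of 32 with only the groups compared. In Irgm1KO_fenofibrate against WT_control 1 member was called with no filter and with only the groups compared, 4 with the Xist covariate (Ddx58 and Adar being added) and 1 to 2 with 1 library left out. With the Xist covariate 4211 genes in place of 1702 and 35 pathway genes in place of 12 were called in Irgm_IFNAR-KO against WT, and 19 pathway genes without the library of lowest Xist in each group, an alternative chosen after seeing the data. The cause of these shifts was not tested.

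With the replicate block 7 of 7 members were called in Irgm1-KO against WT and 6 of 7 in Irgm_IFNAR-KO against WT. With the block within each genotype 6 in place of 5 were called in WT_fenofibrate against WT_control, Ddx60 being added, and the block changed no other call of a member there or in Irgm1KO_fenofibrate against Irgm1KO_control. An exact sign-flip test of the paired ratios cannot go below 0.125. All 320 ratio differences recomputed lay less than the pooled SD of the groups from the reported difference. Direction was not checked, and a small difference can change sign within that SD. Only the sign-flip test gave a p for these alternatives, so the others were not set against the threshold. Depth limits Ifnb1 alone among the named genes.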
